A study of Mus musculus with 24 samples.

Results

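The integrated stress response is the route by which a cell that lacks amino acids, folds its proteins poorly or has impaired mitochondria slows general translation while it raises the transcription factor ATF4. In the distal small intestine of mice, 10 genes of this response were followed, chosen by symbol: *Gdf15*, *Atf4*, *Ddit3*, *Trib3*, *Chac1*, *Asns*, *Sesn2*, *Ddit4*, *Psat1* and *Atf5*. They were 10 of 55536 genes in the deposited read-count table, and were chosen by name, with earlier results of these data known. Stress-sensing kinases phosphorylate the translation factor eIF2alpha, ATF4 and its partner CHOP (encoded by *Ddit3*) then induce genes of amino acid supply and stress feedback, and *Gdf15*, a hormone that acts on the brainstem to lower food intake, is one of the genes raised by this response. *Gdf15* was of interest here because metformin is known to raise the circulating hormone and the intestine is one of its sources.

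One library per animal was sequenced from 24 C57BL/6N mice, an inbred laboratory strain without any engineered allele, that were about a month old when the diets began. The CD group received a control diet with 10% of the energy from fat, and the HFD group a high-fat diet with 60% of the energy from fat, which makes this strain obese. Both diets were given for 20 weeks, and for the next 10 weeks CDmetf and HFDmetf mice also drank metformin, a widely used antidiabetic, dosed at 50 mg per kg of body mass a day, whereas CD and HFD mice did not. Each group held 3 males and 3 females (M1 to M3 and F1 to F3, the digit being the replicate number). The question put to these genes was whether metformin or the fat content of the diet changed their transcript level.

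The reads counted on genes ranged from 1829690 to 40606442 per library (median 3467300). For CD M3, 85.4% of the counted reads fell on its 10 most abundant genes, against 9.22% to 36.6% in the other 23 libraries, which left it a 3-read level of 0.709 CPM, near the median of 0.788 CPM over the 24 libraries. In HFD M2 and in HFD F2 the sex-linked transcripts were those of the other sex than the label gives. 5 deeply counted libraries of replicate number 3 (CD F3, CDmetf M3, CDmetf F3, HFD F3 and HFDmetf F3) stood apart from the other 19 on the second principal component of all tested genes, at 36.6 to 56.2 against -29.99 to 12.3. Epithelial markers (*Epcam*, *Krt8*, *Krt19*, *Cdh1* and *Cdx2*) were detected in every library, with a summed level of 4602 to 8020 CPM (read counts scaled to library size). The pieces were not alike: *Fabp6* and *Slc10a2*, which mark ileal enterocytes, summed to between 5.72 and 3576 CPM, the 4 markers of proximal enterocytes to between 4.51 and 4906 CPM, and the 6 B-cell markers to between 5.25 and 316 CPM. By group, the medians of the ileal sum were 852 CPM in CD, 2274.6 CPM in CDmetf, 1073.5 CPM in HFD and 971 CPM in HFDmetf. Those of the proximal sum were 1271, 42.1, 1809 and 1250 CPM in the same order, with overlapping ranges. No fit held a term for the position of the piece, and its part in the comparisons was not tested.

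*Gdf15* (ENSMUSG00000038508, chr8:70629393-70632456, build GRCm38 as for the other genes) was close to the limit of detection in this tissue. It drew 118 reads in all 24 libraries together, from 0 to 25 in 1 library, and 12 libraries held more than 3 reads while 3 held none. CPM are given here relative to the reads on tested genes, with TMM scaling between libraries, so that 3 reads correspond to between 0.0705 CPM in the deepest library and 1.71 CPM in the shallowest, and this floor covers counting error only. In CD the lowest, median and highest *Gdf15* levels were 0, 0.301 and 0.616 CPM. In CDmetf they were 0, 0.720 and 1.96 CPM, in HFD 0, 0.623 and 1.23 CPM, and in HFDmetf 0.237, 0.598 and 0.859 CPM. The 4 groups overlapped, and the 3 highest values, CDmetf F1, CDmetf M2 and HFD M3, came from shallow libraries of 2977391, 2929631 and 2699529 reads and rested on 6, 6 and 3 reads.

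**Figure D1:**
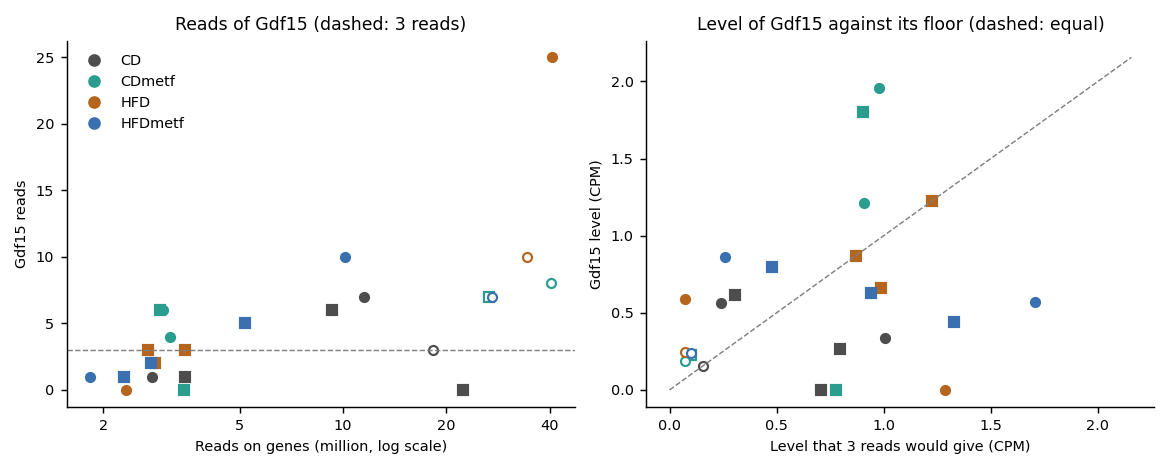
Left, *Gdf15* reads per library against the reads counted on genes (log axis), with 3 reads as a dashed line; right, the *Gdf15* level (CPM) against the level that 3 reads would give in that library, with equality dashed. Colours are the 4 groups, squares males, circles females and open symbols the 5 deeply counted libraries; 12 of 24 libraries lie above the dashed lines, and the highest levels, up to 1.96 CPM, belong to shallow libraries.

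The mean *Gdf15* level was 0.899 ± 0.872 CPM (SD, n = 6) in CDmetf and 0.323 ± 0.236 CPM (SD, n = 6) in CD. The difference of 0.576 CPM was within the spread between animals (exact permutation test of the means, two-sided, 924 arrangements, p = 0.175, and 0.685 after Benjamini-Hochberg adjustment over the 10 such tests of *Gdf15* and *Chac1*). *Gdf15* was higher in 5 of 6 CDmetf animals than in the CD animal of the same sex and number, and the difference was 0.364 CPM without CDmetf F1. Each library weighed alike in these means, whatever its depth. The deeply counted CDmetf M3 and CDmetf F3 had 0.229 CPM (7 reads) and 0.190 CPM (8 reads), and the deeply counted CD F3 had 0.157 CPM (3 reads). On the high-fat diet the means were 0.589 ± 0.229 CPM (SD, n = 6) in HFDmetf and 0.598 ± 0.437 CPM (SD, n = 6) in HFD, with 2 of 6 pairs higher and an exact permutation p of 0.948 (adjusted 0.948). Averaged over both diets, the 12 animals given metformin had 0.744 CPM and the 12 animals not given it 0.460 CPM (100000 permutations within diet, p = 0.205, adjusted 0.685), a difference of 0.284 CPM that was 0.178 CPM without CDmetf F1. HFD exceeded CD by 0.275 CPM (exact permutation p = 0.206, adjusted 0.685), or by 0.149 CPM without HFD M3. HFDmetf minus CDmetf was -0.311 CPM (exact permutation p = 0.416, adjusted 0.805) and ranged from -0.490 CPM without CDmetf M1 to -0.0982 CPM without CDmetf F1. A metformin difference in *Gdf15* was therefore not detectable at this depth, which is not the same as an absent one. In such whole pieces of tissue, fewer cells of a type and less RNA per cell cannot be told apart. In the 5 deeply counted libraries *Gdf15* lay between 0.157 and 0.245 CPM, and 4 of these 5 had more than 3 reads. HFD F1 of replicate number 1, the deepest library of all, is not among them and had 25 reads, or 0.588 CPM.

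Its receptor subunit *Gfral*, known from the hindbrain, had 0 reads in all 24 libraries. The co-receptor *Ret*, which enteric neurons express, was measurable and did not pass the test in any comparison (logFC = 0.20, SE = 0.15, FDR = 0.793 for metformin averaged over the diets, edgeR quasi-likelihood test). Among the 14076 genes tested, those whose level over the 24 libraries was most like that of *Gdf15* by Spearman correlation were *Pex14* (0.819), *Mrps11* (0.774), *Tmem184b* (0.701), *Lama1* (0.695) and *Fanca* (0.688). These values are a description over 24 libraries that share the differences in depth on which so few *Gdf15* reads rest.

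The 10 genes spanned a wide range of abundance. Per kilobase of annotated exon, *Atf4* stood highest at 53.7 ± 8.50 CPM per kb (SD, n = 24), followed by *Asns* at 9.66 ± 2.44, *Atf5* at 7.71 ± 2.71, *Ddit4* at 6.34 ± 1.94, *Ddit3* at 4.12 ± 1.54, *Sesn2* at 3.86 ± 0.889, *Trib3* at 3.75 ± 2.18, *Psat1* at 2.60 ± 1.02, *Chac1* at 0.976 ± 1.05 and *Gdf15* at 0.325 ± 0.282 CPM per kb. *Atf4* lay above *Asns* in every library, whereas among the genes from *Asns* down to *Psat1* each neighbour differed from the next by less than the larger of their SDs, except *Ddit4* from *Ddit3*. *Atf4* was also the steadiest of the 10 between animals, with a coefficient of variation of 15.8%, and *Chac1* the least steady, at 108%.

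Promoter sequence is shown for the 3 genes in which the core of the C/EBP-ATF response element, the site bound by ATF4 with a C/EBP partner, was found. The search used TGATGNAA on both strands of the RefSeq promoter windows (250 bases before to 50 after the start, build GRCm38.p6), which were available for all 10 genes. It was found in *Chac1*, *Trib3* and *Asns*, or 3 of 10, against 4.51% of the 27025 genes with a window. Each line gives 30 bases, 5′ to 3′ in the direction of the gene, with the match in capitals, and in *Chac1* and *Trib3* the match is on the opposite strand and the capitals show its reverse complement.
*Chac1*, plus strand, chr2:119351038-119351067: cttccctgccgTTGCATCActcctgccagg
*Trib3*, minus strand, chr2:152344028-152344057: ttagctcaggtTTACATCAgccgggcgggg
*Asns*, minus strand, chr6:7693214-7693243: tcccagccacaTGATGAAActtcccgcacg
Counted from the start RefSeq gives, the first capital lies at -193 in *Chac1*, at 15 past the start in *Trib3* and at -23 in *Asns*. These starts differ from the ends of the GENCODE gene spans printed with each gene, by which the *Trib3* match lies before the gene and the *Asns* match inside it. With the open position fixed as C (TGATGCAA) the core was left in *Chac1* alone, 1 of 10, against 1.03% of genes. The endoplasmic reticulum stress element, read by ATF6, was in the windows of 0 of these 10 genes and of 0.137% of all genes. A match here describes letters and not binding, and its absence from the windows of the other 7 genes says nothing about ATF4 at those genes.

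Differential expression was tested across all genes with edgeR's quasi-likelihood test on 24 libraries with sex and replicate number as covariates, and a gene was called at an adjusted p-value (FDR) under 0.05. 8 of the 10 genes had enough reads to be tested, *Gdf15* and *Chac1* being left out by the filter on low counts. None of the 8 was called in any of the 6 contrasts. That stands against a background of 0 called genes of 14076 (0%) in HFDmetf vs. HFD, CDmetf vs. CD, metformin averaged over the diets, HFD vs. CD, HFDmetf vs. CDmetf and the diet by metformin interaction. At an unadjusted p under 0.05 the shares of all genes were 6.61%, 5.14%, 5.04%, 4.63%, 7.87% and 6.03% in the same order, and 0, 0, 0, 1, 0 and 0 of the 8 genes reached it. By DESeq2 and limma-voom none of the 8 was called either. Limma-voom with sample quality weights called 1 of them in HFDmetf vs. HFD and 1 in HFD vs. CD. It called 2538 and 1428 of all 14076 genes there, and 1 of 8 is near these shares.

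**Figure D2:**
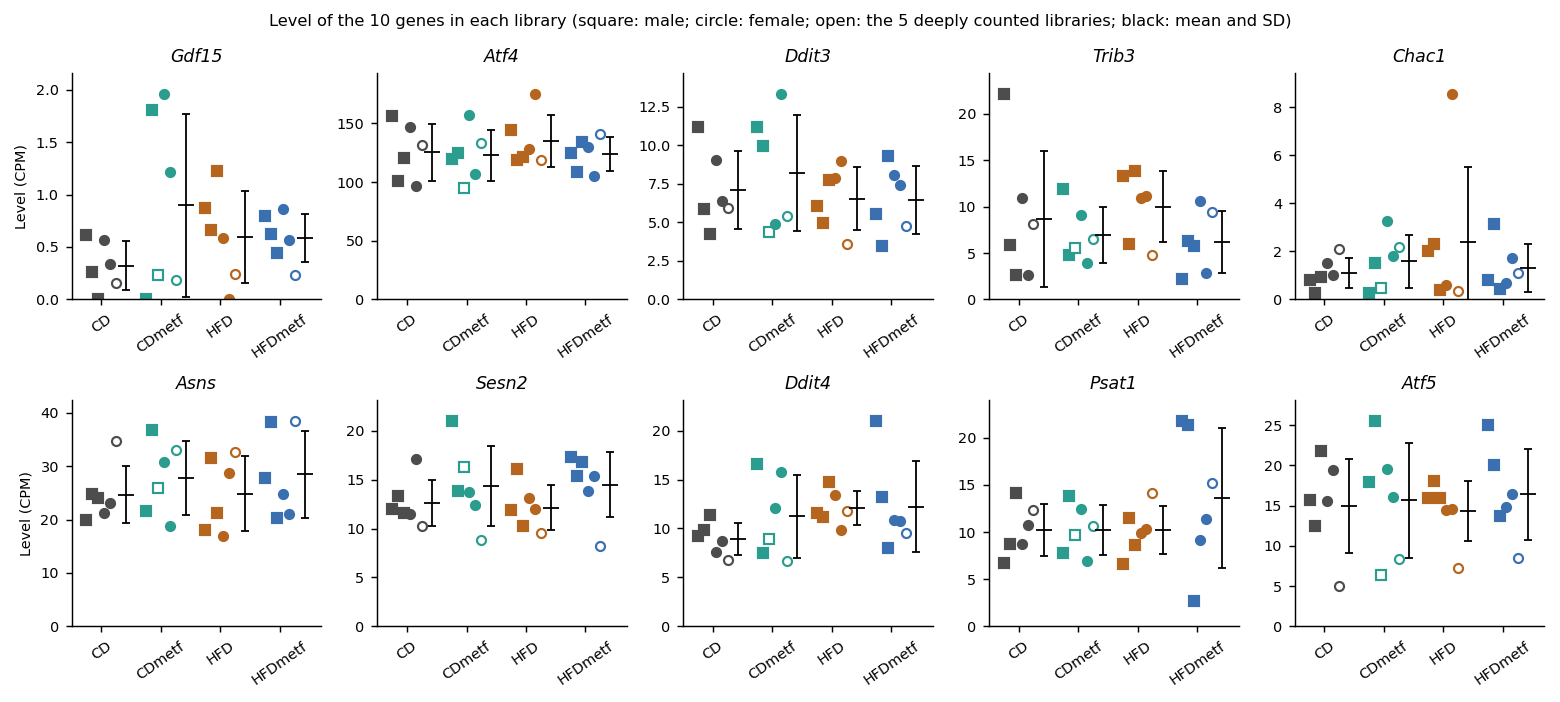
Level (CPM) of each of the 10 genes in every library by group; squares are males, circles females, open symbols the 5 deeply counted libraries, and the black bars the mean and SD of 6 libraries (lower bars end at 0). The 4 groups overlap for every gene, and *Atf5* is lowest in the 5 open symbols, at 5.04 to 8.50 CPM.

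*Atf4* (ENSMUSG00000042406, chr15:80255184-80257541), the central transcription factor, differed little between the groups. The lowest, median and highest levels were 96.5, 126, and 156 CPM in CD, 94.8, 122 and 157 CPM in CDmetf, 119, 125 and 175 CPM in HFD and 105, 127 and 141 CPM in HFDmetf. All groups overlapped, and the highest value belonged to HFD F2. For HFDmetf vs. HFD the logFC was -0.12 (SE = 0.13, FDR = 0.757) and for CDmetf vs. CD -0.03 (SE = 0.13, FDR = 0.999). Averaged over the diets, the fold of *Atf4* was 0.950 with a 95% interval of 0.833 to 1.08. ATF4 protein is set mainly by translation, which these libraries do not measure.

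*Atf5* (ENSMUSG00000038539, chr7:44812256-44816658), the factor related to ATF4 that responds to mitochondrial stress, had medians of 15.6 CPM in CD, 17.0 CPM in CDmetf, 15.2 CPM in HFD and 15.6 CPM in HFDmetf. Within a group it ranged widely, for example from 6.40 to 25.6 CPM in CDmetf. For metformin averaged over the diets the logFC was 0.07 (SE = 0.18, FDR = 0.932).

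*Ddit3* (ENSMUSG00000025408, chr10:127290774-127296288) encodes CHOP, the factor that turns a lasting stress towards cell death. Its lowest, median and highest levels were 4.25, 6.15 and 11.2 CPM in CD, 4.37, 7.68 and 13.3 CPM in CDmetf, 3.58, 6.92 and 8.99 CPM in HFD and 3.45, 6.48 and 9.30 CPM in HFDmetf. The 4 groups overlapped, with the widest range in CDmetf. The averaged metformin logFC was 0.08 (SE = 0.21, FDR = 0.938), and the largest difference was in HFDmetf vs. CDmetf (logFC = -0.31, SE = 0.30, FDR = 0.804), where it ranged from -0.53 without HFDmetf M3 to -0.13 without CDmetf F2. A second gene identifier with the same symbol lies inside this gene and had 0 reads.

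*Trib3* (ENSMUSG00000032715, chr2:152337422-152344032), a pseudokinase induced by CHOP that dampens the response, had the lowest averages in the metformin groups. Its lowest, median and highest levels were 2.60, 6.96 and 22.2 CPM in CD, 3.94, 6.03 and 11.9 CPM in CDmetf, 4.83, 11.0 and 13.9 CPM in HFD and 2.23, 6.02 and 10.6 CPM in HFDmetf. The groups overlapped, since CD M3 and CD F2 were as low as the lowest metformin animals. The logFC of HFDmetf vs. HFD was -0.55 (SE = 0.41, FDR = 0.662, lower in 4 of 6 pairs), and that of metformin averaged over the diets -0.41 (SE = 0.28, FDR = 0.793, lower in 8 of 12 pairs). The 95% interval of the averaged fold, 0.500 to 1.13, spans a halving as well as no change. Without HFDmetf M1 both logFC values were -0.25. In HFDmetf vs. HFD the value was -0.84 without HFDmetf F3, and over the other alternatives it ranged from -0.11 with the smooth muscle marker score to -1.02 without the 5 deeply counted libraries.

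*Chac1* (ENSMUSG00000027313, chr2:119351229-119354381), a glutathione-degrading enzyme among the most inducible ATF4 targets, drew 339 reads in all, from 1 to 92 per library. Its medians were 0.975 CPM in CD, 1.66 CPM in CDmetf, 1.32 CPM in HFD and 0.957 CPM in HFDmetf. HFD F2 stood at 8.57 CPM while the other 5 HFD libraries lay between 0.343 and 2.30 CPM, and this library was also the highest for *Atf4*. None of the 5 differences in mean passed an exact or random permutation test (adjusted p from 0.805 to 0.896 over the 10 tests of *Gdf15* and *Chac1*). HFDmetf lay 1.06 CPM under HFD with all libraries and 0.176 CPM above it without HFD F2.

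*Asns* (ENSMUSG00000029752, chr6:7675169-7693254), which makes asparagine, and *Psat1* (ENSMUSG00000024640, chr19:15904678-15947337), an enzyme of serine synthesis, stand for the amino acid arm. The lowest, median and highest *Asns* levels were 19.9, 23.6 and 34.8 CPM in CD, 18.8, 28.3 and 36.7 CPM in CDmetf, 16.8, 24.97 and 32.6 CPM in HFD and 20.4, 26.2 and 38.5 CPM in HFDmetf. The averaged metformin logFC was 0.21 (SE = 0.14, FDR = 0.793, higher in 8 of 12 pairs), with a fold of 1.16 and a 95% interval of 0.950 to 1.41. In HFDmetf vs. HFD the logFC was 0.25 (SE = 0.19, FDR = 0.673). It was 0.44 (SE = 0.13, FDR = 0.0264) in limma-voom with sample quality weights, where the FDR under the other alternatives, leaving out 1 animal included, ranged from 0.389 to 0.999. It was 0.06 with the B-cell marker score as a covariate, 0.14 with that of smooth muscle and 0.11 without HFDmetf M2. The summed B-cell markers ranged from 11.0 to 234 CPM in HFD and from 6.78 to 19.5 CPM in HFDmetf.

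*Psat1* spread most in HFDmetf, where its lowest, median and highest levels were 2.66, 13.3 and 21.8 CPM. The other groups were narrower, at 6.67, 9.75 and 14.2 CPM in CD, 6.97, 10.2 and 13.8 CPM in CDmetf and 6.66, 10.1 and 14.2 CPM in HFD. HFDmetf M1, HFDmetf M2 and HFDmetf F3 were above all 18 animals of the other groups, and HFDmetf M3, with 6 reads, was below them all. The logFC was 0.43 (SE = 0.32, FDR = 0.657) in HFDmetf vs. HFD and 0.45 (SE = 0.32, FDR = 0.73) in HFDmetf vs. CDmetf. Without HFDmetf M1 these fell to 0.16 and 0.17, and without HFDmetf M3 they were 0.64 and 0.67. In HFDmetf vs. HFD the logFC was 0.16 with the smooth muscle marker score as a covariate, 0.23 with that of B cells and 0.23 by limma-voom. Over the alternatives other than leaving out 1 animal it ranged from 0.11, in limma-voom with sample quality weights, to 0.43. The averaged metformin logFC of *Psat1* was 0.22 (SE = 0.22, FDR = 0.82).

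*Sesn2* and *Ddit4* both restrain the growth kinase mTORC1. *Sesn2* (ENSMUSG00000028893, chr4:132492032-132510501) had lowest, median and highest levels of 10.3, 11.8 and 17.1 CPM in CD, 8.81, 13.8 and 21.03 CPM in CDmetf, 9.59, 11.9 and 16.1 CPM in HFD and 8.27, 15.4 and 17.3 CPM in HFDmetf. Metformin averaged over the diets gave a logFC of 0.19 (SE = 0.12, FDR = 0.793, higher in 8 of 12 pairs), with 0.22 (SE = 0.17, FDR = 0.665) in HFDmetf vs. HFD and 0.17 (SE = 0.16, FDR = 0.976) in CDmetf vs. CD. The first was 0.13 without HFD M1 and 0.09 by limma-voom, and the second 0.08 without CDmetf M3.

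*Ddit4* (ENSMUSG00000020108, chr10:59949669-59951834), also known as Redd1, had its largest logFC between the diets. Its lowest, median and highest levels were 6.82, 8.98 and 11.3 CPM in CD and 9.85, 11.7 and 14.7 CPM in HFD. Each HFD animal exceeded the CD animal of the same labelled sex and number, 6 of 6 pairs, although the 2 groups overlapped. By their sex-linked transcripts, HFD F2 (9.85 CPM) would face CD M2 (9.84 CPM), and HFD M2 (11.2 CPM) would face CD F2 (8.71 CPM). The logFC was 0.47 (SE = 0.22, FDR = 1), a fold of 1.39 with a 95% interval of 1.02 to 1.90. This was the 1 of 8 genes under an unadjusted p of 0.05, where 4.63% of all genes were, and it did not pass the adjustment in the main test. Limma-voom with sample quality weights gave 0.60 (SE = 0.13, FDR = 0.0067), while the other alternatives gave FDR from 0.401 to 1. Leaving out any one animal kept the logFC between 0.40 and 0.59.

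With metformin the *Ddit4* levels were 6.67, 10.5 and 16.6 CPM in CDmetf and 7.97, 10.9 and 21.004 CPM in HFDmetf, wider than without it. CDmetf vs. CD gave a logFC of 0.31 (SE = 0.22, FDR = 0.951) and metformin averaged over the diets 0.14 (SE = 0.15, FDR = 0.834). The diet by metformin interaction of *Ddit4* was -0.33 (SE = 0.31, FDR = 0.838). Without CDmetf F2 these became 0.11 in CDmetf vs. CD, 0.02 averaged over the diets and -0.18 for the interaction.

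**Figure D3:**
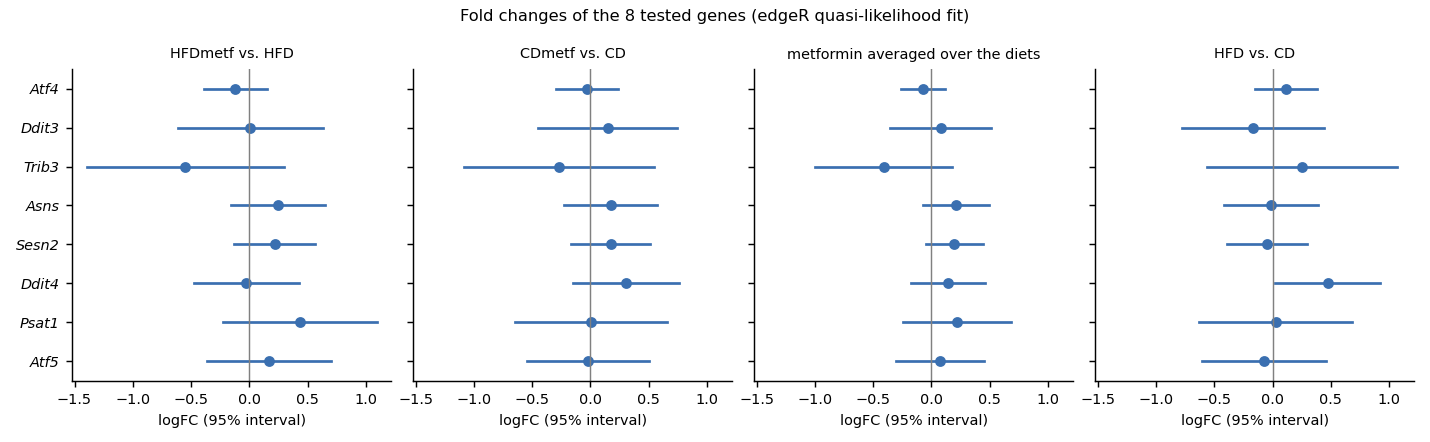
LogFC with 95% intervals of the 8 tested genes in 4 contrasts (edgeR quasi-likelihood fit of 24 libraries). All intervals include 0 except that of *Ddit4* in HFD vs. CD, which is unadjusted and starts at 0.02.

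The remaining fold changes of the 8 genes were smaller than their standard errors. Of the 48 logFC values in the 6 contrasts, 13 exceeded their own standard error. The median over the 8 genes was 0.09 in HFDmetf vs. HFD, 0.08 in CDmetf vs. CD and 0.01 in HFD vs. CD, beside 0.03, -0.00232 and -0.0047 over all tested genes. HFDmetf vs. HFD and HFD vs. CD share the HFD animals, and CDmetf vs. CD and HFD vs. CD the CD animals.

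The metformin difference was also compared between males and females in a model of 8 groups of 3 animals, in which 14402 genes, *Chac1* among them, were tested. 0 genes (0%) were called and 3.71% reached an unadjusted p under 0.05. *Sesn2* was the 1 of 9 genes to reach it, with a metformin logFC larger by 0.48 in males (SE = 0.22, FDR = 1). Sex itself was called for 1 of all genes (0.0071%) and for none of the 8. *Atf5* (logFC = 0.45, male minus female, FDR = 0.62) and *Sesn2* (logFC = 0.29, male minus female, FDR = 0.624) did not pass the adjustment. HFD M2 and HFD F2 enter these values with their labelled sex.

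The replicate number, a covariate of the model, was called for 2333 genes (16.6%), and among the 8 for *Atf5* (FDR = 0.0253), while *Trib3* (FDR = 0.0749) and *Sesn2* (FDR = 0.11) did not pass. 1 of 8 is near that background. *Atf5* averaged 17.4 ± 3.52 CPM (SD, n = 8) in replicate number 1, 17.9 ± 3.99 CPM in number 2 and 10.9 ± 5.74 CPM in number 3. The low values of number 3 were those of the 5 deeply counted libraries, at 5.04 to 8.50 CPM, below all other 19 libraries, which lay between 12.5 and 25.6 CPM. These libraries were picked out by replicate number, read depth and the share of reads on the 10 most abundant genes. They were picked from the data, so the comparison is given as a description with no test. HFD F1, the deepest library, is not among them and had 14.4 CPM of *Atf5*. CD M3, with 22413162 reads, is not among them either and had 21.7 CPM of *Atf5*. As 85.4% of its reads fell on 10 genes, its 3-read level of 0.709 CPM was near the median, so it was not deep for the other genes. *Trib3* averaged 11.4 ± 5.48 CPM (SD, n = 8) in number 1, against 5.43 ± 2.69 CPM in number 2 and 7.08 ± 3.43 CPM in number 3. *Ddit3* in the 5 libraries was at the low end, 3.58 to 5.93 CPM, and *Asns* at the high end, 25.9 to 38.5 CPM, where the other 19 libraries spanned 3.45 to 13.3 CPM and 16.8 to 38.3 CPM.

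**Figure D4:**
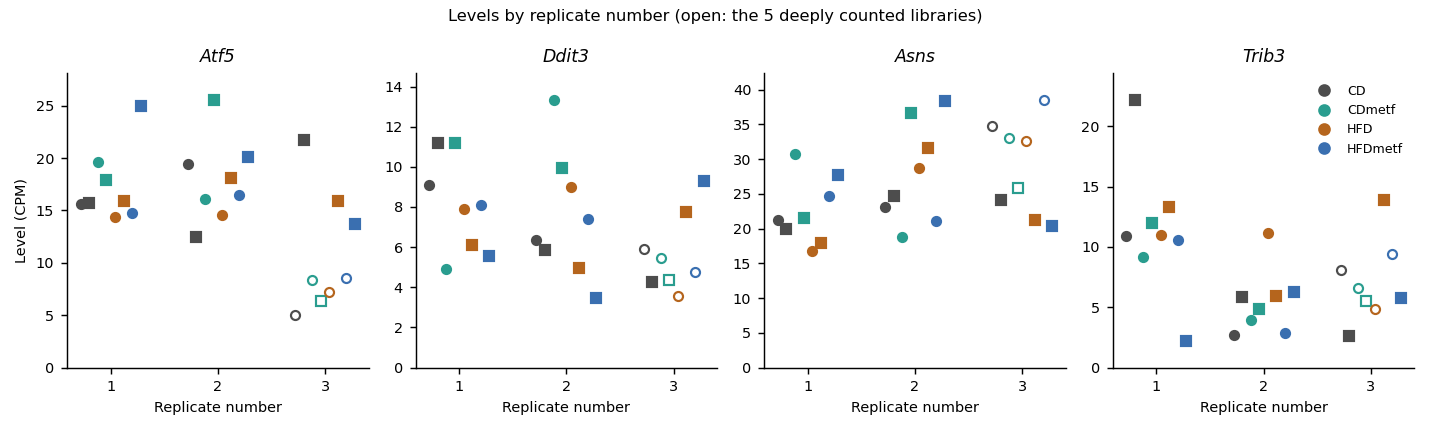
Levels (CPM) of *Atf5*, *Ddit3*, *Asns* and *Trib3* in the 24 libraries by replicate number (8 libraries each); colours are the groups, squares males, circles females, and open symbols the 5 deeply counted libraries. *Atf5* is at most 8.50 CPM in the 5 open symbols and at least 12.5 CPM elsewhere.

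Whether the genes moved together from animal to animal was asked next, with log2 CPM over 24 libraries. *Gdf15* followed none of the other 9: Pearson's r ranged from -0.09 to 0.34 (100000 permutations, two-sided, each with an adjusted p of 0.962 over 9 relations). The strongest was with *Atf5* (r = 0.34, permutation p = 0.108, adjusted 0.962, and Spearman's rho = 0.48, permutation p = 0.0171, adjusted 0.154). The 3 libraries with 0 *Gdf15* reads tie as the farthest from its median, and r was 0.50 to 0.63 without any 2 of them and 0.79 without all 3. It was 0.07, 0.62 and -0.00143 within replicate numbers 1, 2 and 3. In the 19 libraries other than the 5 deeply counted ones it was 0.14. After group, sex and replicate number had been removed it was 0.13 (permutation p = 0.526, adjusted 0.969). With 0 to 25 reads of *Gdf15*, counting error enters each of these values.

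Among all 45 pairs, a comparison added after the values were seen, 4 passed the adjustment over 45 by both coefficients. *Asns* and *Psat1*, both enzymes of amino acid synthesis, rose and fell together (r = 0.66, permutation p = 0.00028, adjusted 0.0126, and rho = 0.76, permutation p = 4e-05, adjusted 0.0018). Their r was 0.67, 0.82 and 0.69 within replicate numbers 1, 2 and 3, 0.58 without HFDmetf F3 and HFDmetf M2, and 0.70 after group, sex and replicate number had been removed. The 2 libraries left out, here and for the pairs below, were the farthest from the median of *Asns*, *Ddit3* or *Atf4*, not of the partner gene. HFDmetf M3, the lowest library for *Psat1*, was not among them. *Ddit3* ran against both: r was -0.60 with *Psat1* (permutation p = 0.00112, adjusted 0.0198, rho = -0.69, permutation p = 0.0003, adjusted 0.00675) and -0.57 with *Asns* (permutation p = 0.004, adjusted 0.045, rho = -0.58, permutation p = 0.00379, adjusted 0.0426).

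Within replicate numbers 1, 2 and 3 *Ddit3* and *Psat1* gave r of -0.62, -0.69 and -0.81, and *Ddit3* and *Asns* -0.51, -0.51 and -0.56. Without CDmetf F2 and CD M1 the values were -0.55 and -0.49. *Atf4* and *Trib3* rose together (r = 0.62, permutation p = 0.00132, adjusted 0.0198, rho = 0.60, permutation p = 0.0021, adjusted 0.0315), with r of 0.45, 0.78 and 0.29 within the replicate numbers and 0.64 without HFD F2 and CDmetf M3. After group, sex and replicate number had been removed this pair had r = 0.48 (permutation p adjusted to 0.168), and *Atf4* with *Chac1* had r = 0.68 (adjusted 0.00255). Before that removal *Atf4* and *Chac1* had r = 0.44 (permutation p adjusted to 0.206, rho = 0.35), and 0.20 without HFD F2, the highest library for both genes, and CDmetf M3. The libraries share depth, tissue composition and the scaling to the same totals, whose part in these relations was not tested.

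**Figure D5:**
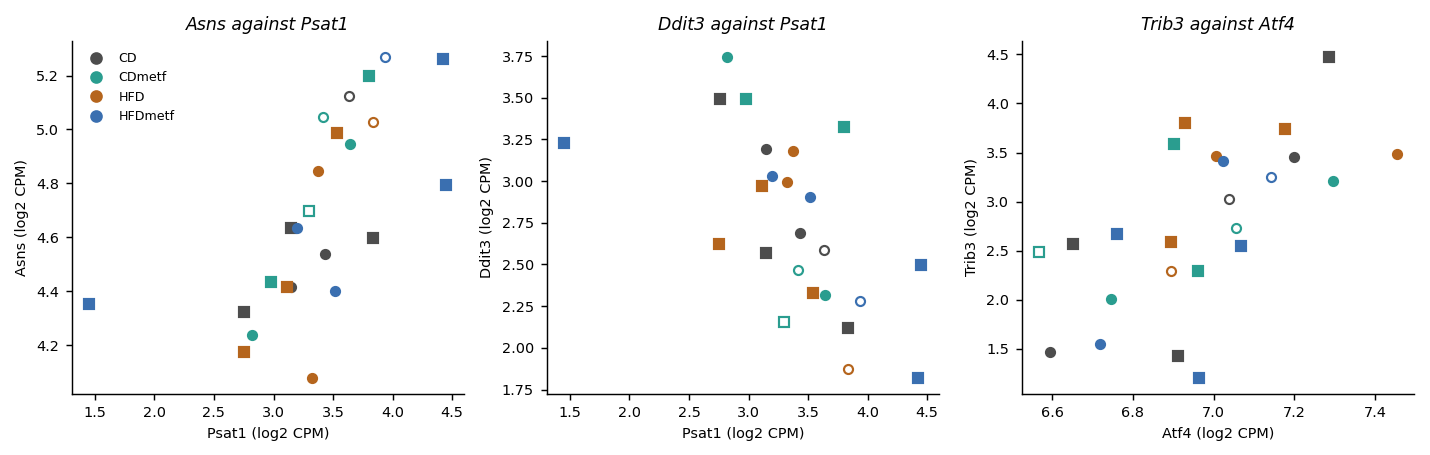
Log2 CPM of *Asns* and of *Ddit3* against *Psat1*, and of *Trib3* against *Atf4*, in 24 libraries (r = 0.66, -0.60 and 0.62); colours are the groups, squares males, circles females and open symbols the 5 deeply counted libraries. The lone point at the far left for *Psat1* is HFDmetf M3, with 6 reads.

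The genes around these 10 in the pathway were taken from fixed lists, and edgeR called none of them in any contrast. Limma-voom with sample quality weights called 7 of the values given below, each named with its gene. Over all 14076 tested genes it called 2538 in HFDmetf vs. HFD, 1428 in HFD vs. CD and 907 in HFDmetf vs. CDmetf. Of the 7 genes upstream, the eIF2alpha kinases, eIF2alpha itself and its phosphatase subunits, 7 were higher and 0 lower in CDmetf vs. CD (median logFC = 0.12), against 3 higher and 4 lower in HFDmetf vs. HFD (median logFC = -0.18). The lowest p in the list was that of *Eif2ak2*, the kinase PKR, in HFDmetf vs. CDmetf (logFC = -0.29, SE = 0.13, FDR = 0.627). The 5 other bZIP or partner factors (*Atf3*, *Cebpb*, *Cebpg*, *Nupr1* and *Nfe2l2*) were lower in 5 of 5 for metformin averaged over the diets (median logFC = -0.26), with none at an unadjusted p under 0.05.

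Of the 8 genes of serine, one-carbon and proline synthesis, 8 were higher in HFDmetf vs. CDmetf (median logFC = 0.26 beside 0.03 over all genes, 1 with an unadjusted p under 0.05). *Pycr1*, which makes proline, had the lowest p there (logFC = 0.50, SE = 0.23, FDR = 0.628, and 0.65 with FDR = 0.0185 under the quality weights), and *Shmt2*, the mitochondrial serine hydroxymethyltransferase, for metformin averaged over the diets (logFC = 0.31, SE = 0.13, FDR = 0.793). In HFDmetf vs. HFD 7 of the 8 genes were higher (median logFC = 0.33), against 5 of 8 in CDmetf vs. CD (median logFC = 0.05). The interaction was positive for 8 of 8 (median logFC = 0.27, 2 with an unadjusted p under 0.05, as 6.03% of all genes had). *Aldh1l2*, a mitochondrial folate enzyme, was at 4.41 ± 0.571 CPM (SD, n = 6) in CD, 2.52 ± 0.770 CPM in CDmetf and 2.51 ± 0.926 CPM in HFD. In HFDmetf it was at 3.08 ± 1.12 CPM (SD, n = 6). Its logFC was -0.76 in CDmetf vs. CD (SE = 0.27, FDR = 0.94) and -0.83 in HFD vs. CD (SE = 0.28, FDR = 1, and -0.76 with FDR = 0.00191 under the quality weights), and both contrasts use the same CD animals.

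Amino acid transporters were tested for 7 of 8 genes. *Slc1a4*, a neutral amino acid carrier, had the lowest p for metformin averaged over the diets (logFC = 0.34, SE = 0.16, FDR = 0.793), with 5 of 7 higher, and *Slc6a9*, a glycine carrier, in HFDmetf vs. CDmetf (logFC = 0.51, SE = 0.21, FDR = 0.599, and 0.51 with FDR = 0.0486 under the quality weights), with 4 of 7 higher. Of the 12 cytosolic aminoacyl-tRNA synthetases, 11 were higher with metformin averaged over the diets, by small amounts (median logFC = 0.11, range -0.02 to 0.24). *Wars*, which charges tryptophan tRNA, had the lowest p (logFC = 0.24, SE = 0.10, FDR = 0.793), with 64.5 ± 8.78 CPM (SD, n = 6) in CD, 78.9 ± 9.14 CPM in CDmetf, 64.8 ± 15.8 CPM in HFD and 73.5 ± 12.7 CPM in HFDmetf. The core TGATGNAA was found in 5 of the 7 synthetase genes that were matched to promoter windows.

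The unfolded protein arm run by ATF6 and XBP1 was followed through 12 chaperone and quality control genes. All 12 were higher in CDmetf vs. CD (median logFC = 0.28, range 0.13 to 0.41, 3 with an unadjusted p under 0.05, as 5.14% of all genes had), against 3 higher and 9 lower in HFDmetf vs. HFD (median logFC = -0.07). The interaction was negative for 12 of 12 (median logFC = -0.31, 2 with an unadjusted p under 0.05, as 6.03% of all genes had). In HFD vs. CD, which uses the same CD animals, 11 of 12 were higher (median logFC = 0.12), and in HFDmetf vs. CDmetf 11 of 12 were lower (median logFC = -0.17). *Hspa5*, the chaperone BiP, was at 320 ± 66.3 CPM (SD, n = 6) in CD, 422 ± 104 CPM in CDmetf, 376 ± 85.2 CPM in HFD and 366 ± 50.9 CPM in HFDmetf, with a logFC of 0.41 in CDmetf vs. CD (SE = 0.14, FDR = 0.94). *Dnajb9*, an XBP1 target, was at 79.0 ± 20.1 CPM (SD, n = 6) in CDmetf and 50.7 ± 32.6 CPM in HFDmetf (logFC = -0.72, SE = 0.24, FDR = 0.582 in HFDmetf vs. CDmetf, and -0.79 with FDR = 0.0143 under the quality weights). *Pdia4*, a disulfide isomerase, had the lowest p for metformin averaged over the diets (logFC = 0.24, SE = 0.09, FDR = 0.793), and *Sdf2l1* in HFD vs. CD (logFC = 0.36, SE = 0.15, FDR = 1, and 0.30 with FDR = 0.0491 under the quality weights). The endoplasmic reticulum stress element was present in 5 of the 10 genes of this list matched to promoter windows, against 0 of the 10 genes from *Gdf15* to *Atf5*. Plasma cells hold much of this machinery, and their 4 markers (*Jchain*, *Mzb1*, *Derl3* and *Tnfrsf17*) summed to 183 to 562 CPM in CD, 155 to 630 CPM in CDmetf, 265 to 619 CPM in HFD and 223 to 523 CPM in HFDmetf. The medians of this sum were 317 CPM in CD, 431 CPM in CDmetf, 513 CPM in HFD and 436 CPM in HFDmetf. The part of plasma cells in the chaperone levels was not tested.

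Of the other ATF4 or CHOP targets, 9 of 10 were tested, and *Fgf21*, the other stress hormone of this pathway, had 10 reads in all 24 libraries. *Vldlr*, a lipoprotein receptor, had opposite signs on the 2 diets. It was at 12.5 ± 2.61 CPM (SD, n = 6) in CDmetf and 16.2 ± 3.63 CPM in CD (logFC = -0.38, SE = 0.18, FDR = 0.94), and at 18.8 ± 4.65 CPM in HFDmetf and 13.5 ± 2.51 CPM in HFD (logFC = 0.48, SE = 0.18, FDR = 0.64). The difference between the 2 was 0.87 (interaction, SE = 0.25, FDR = 0.67), and it did not pass the adjustment. This interaction was not examined under the quality weights. Under the quality weights *Vldlr* was called in HFDmetf vs. HFD (logFC = 0.54, FDR = 0.00289) and in HFDmetf vs. CDmetf (logFC = 0.55, FDR = 0.0158, against 0.60 with FDR = 0.582 in edgeR), and without HFDmetf F2 the edgeR logFC of HFDmetf vs. HFD was 0.30.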

How the data were processed

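Read counts per gene were taken as deposited. Per the labels and the study's methods, the authors had depleted ribosomal RNA, prepared directional libraries, trimmed reads with Trimmomatic (version 0.39) and mapped and counted them per gene with STAR (version 2.5.3a) against GRCm38. Which annotation release and which strand they counted is not given in the sources used here. All 24 columns were matched to samples by their labels, and 4 summary rows were left out of library sizes and tests. Gene identifiers were matched to GENCODE M21 for positions and exon lengths. Promoter windows came from RefSeq.

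Genes were filtered with filterByExpr, scaled by TMM and fitted in edgeR (version 4.0.16, R 4.3.3) by quasi-likelihood with group, sex and replicate number. P-values were adjusted by Benjamini-Hochberg over all tested genes at 0.05. The model was tested on simulated data. CPM are counts over the TMM-scaled reads on tested genes. Log2 CPM used a prior count of 1. *Gdf15* and *Chac1*, below the filter, were compared by permutation (scipy 1.17.1). Alternatives used limma (version 3.58.1), DESeq2 (version 1.42.0), other scaling, filters and covariates, and leaving out libraries. Each library was 1 animal from its own cage, so p-values measure the spread between animals, and counting floors cover counting error only. The 10 genes and the pathway and marker lists were chosen with earlier results of these data known. Named pathway genes were those with the lowest p of their list in a comparison. The library term for 5 libraries, the permutation tests, the correlations of all 45 pairs and those without the libraries with 0 *Gdf15* reads were added after the data were seen.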

Additional observations from a re-analysis of the deposited data

Results flagged for a closer look

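Each of the 10 genes was examined in each of the 4 groups for a single library far from the others (40 sets of 6 libraries). In 3 of the 40 the gap to the nearest library exceeded 0.625 of the whole range, where chance gives about 5% of sets. HFD F2 had 8.57 CPM of *Chac1*, and the remaining HFD animals had 0.343 to 2.30 CPM, with a gap of 0.762 of the range. CD F3 had 34.8 CPM of *Asns*, and its 5 companions in CD had 19.9 to 24.7 CPM (0.677 of the range). HFD F3 had 7.26 CPM of *Atf5*, and the remaining HFD animals had 14.4 to 18.1 CPM (0.659 of the range). CD F3 and HFD F3 belong to the 5 deeply counted libraries, and the part of whatever sets those libraries apart was not tested.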

How the results depend on the processing

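*Gdf15* and *Chac1* rest on 118 and 339 reads in all, and 13 of 48 fold changes of the 8 tested genes exceeded their standard error. In limma-voom with sample quality weights 2538, 37, 45, 1428, 907 and 971 genes were called in HFDmetf vs. HFD, CDmetf vs. CD, metformin averaged over the diets, HFD vs. CD, HFDmetf vs. CDmetf and the interaction. Of the 8 genes it called 1 in HFDmetf vs. HFD (*Asns*) and 1 in HFD vs. CD (*Ddit4*), and it gave *Psat1* -0.0299 averaged over the diets, where the main test gave 0.22. DESeq2 called 4 genes in CDmetf vs. CD, 13 in HFD vs. CD, 3 in HFDmetf vs. CDmetf and 4 in the interaction. *Atf4* turned from -0.12 to 0.0240 in HFDmetf vs. HFD without HFD M2 and HFD F2. In CDmetf vs. CD it turned from -0.03 to 0.00731 with no filter on low counts, to 0.0240 with the B-cell score and to 0.031 without the 5 deeply counted libraries. The correlation with *Gdf15* changed sign to -0.11 for *Trib3* and 0.0501 for *Psat1* without CD M3, and to -0.0156 for *Chac1*, -0.30 for *Sesn2* and -0.13 for *Ddit4* once group, sex and replicate number were removed. The stricter promoter core left 1 gene. The cause of these changes was not tested.

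Leaving out 1 animal at a time gave 0 to 1 genes called in HFD vs. CD, the 1 without CD F1. *Atf4* in CDmetf vs. CD ranged from -0.11 to 0.0348, and averaged over the diets *Ddit3* ranged from -0.0404 to 0.145 and *Atf5* from -0.0120 to 0.202. In CPM, *Gdf15* in HFDmetf vs. HFD ranged from -0.129 to 0.117. *Chac1* ranged from -1.47 to 0.176 in HFDmetf vs. HFD, from -0.637 to 0.0641 in HFDmetf vs. CDmetf and from -0.496 to 0.326 averaged over the diets. Of the 28 fold changes not given in the text, 81 of 434 alternative values and 95 of 672 leave-one-out values had another sign. None of the 13 larger than their standard error changed sign under an alternative other than leaving out 1 animal.

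The labels give every group the same replicate numbers. Deviations from the group means correlated at 0.13 on average between same-numbered libraries (72 pairs, -0.458 to 0.757) and at -0.06 between others (144 pairs), and 14 of 24 libraries correlated best with their own number, a hint from the data. Not every same-numbered pair correlated above 0.1, and the labels do not say whether the number is the study's block, so pairing was not established; the number is a term of the model used. Without the replicate block 0 genes were called in each of the 6 contrasts, and *Ddit4* in HFD vs. CD was 0.47 (SE = 0.23, FDR = 1 in edgeR).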

Other observations

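Mitochondrial proteases and chaperones, a neighbouring stress arm, were higher in 5 of 5 genes in HFDmetf vs. HFD (median logFC = 0.21 beside 0.03 over all genes) and in 3 of 5 in CDmetf vs. CD (median logFC = 0.06), with none called by edgeR. *Hspd1*, the matrix chaperonin, had the lowest p for metformin averaged over the diets (logFC = 0.29, SE = 0.14, FDR = 0.793, edgeR). The p53 targets, a second route to *Gdf15* induction, were higher in 3 and lower in 3 of 6 tested genes for metformin averaged over the diets (median logFC = 0.02), with none at an unadjusted p under 0.05.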
